A study of Mus musculus with 20 samples.

Results

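Ckm, Atp2a1, Myh4, Acta1, Mylpf, Tcap, Tpm2, Ryr1 and Pgam2, 9 genes known for their work in skeletal muscle, were followed through hippocampus RNA libraries of Fmr1 KO and C57 mice. They were taken by symbol from the 13256 genes listed for every library. The list was drawn up after Ckm, Atp2a1 and Myh4 had been seen to be lower in male KO than in male WT libraries. What the 9 genes show between those 2 groups, or in any comparison that uses the male WT libraries, is therefore a description without a test. Female KO and female WT libraries played no part in that choice, and between them the genes were tested. The spread used in that test was estimated over all libraries, male WT among them. A fit of the female libraries alone is given among the alternatives.

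The 20 libraries form 4 groups of 5: female KO, female WT, male KO and male WT, all hippocampus RNA. Titles call the mutant animals Fmr1 KO while the genotype field writes a knockdown of Fmr1, and WT animals are C57. Fmr1 encodes FMRP, which binds messenger RNAs in neurons, and people without it have fragile X syndrome. The background strain of the KO mice, the zygosity of the female KO, age and pooling are not stated in the labels. Nothing says that the 5 libraries of a group came from separate animals, so every p-value here rests on the spread among libraries, which may be technical. Fmr1 was at 2.90 to 3.66 FPKM in female KO and 9.85 to 11.3 in female WT libraries, and at 3.31 to 3.72 in male KO and 10.5 to 11.8 in male WT libraries. FPKM count sequenced fragments per length of transcript, scaled to the total mapped in each library. The Y-linked gene Ddx3y was at most 0.0286 FPKM in the female and at least 12.6 in the male libraries. The 10 hippocampal neuron markers looked up were all present, with summed levels of 868 to 950 FPKM over all libraries. Depth is unknown, because FPKM are not counts.

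Skeletal muscle shortens when myosin heads of the thick filament pull on actin of the thin filament, inside repeating units anchored at Z-discs. A nerve impulse opens the ryanodine receptor of the sarcoplasmic reticulum, calcium binds troponin and moves tropomyosin off the actin, and a calcium pump then refills the store. Fast fibres use their own forms of myosin, troponin and calcium pump, and they draw quick energy from creatine phosphate and glycolysis. Neurons and glia run the same chemistry mainly on other members of these families, such as the brain creatine kinase Ckb and the calcium pump Atp2a2.

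Of the 9 genes, Ckm, Atp2a1 and Myh4 had one pattern: every male WT library stood above all 15 other libraries. The promoters of these 3 genes, and of Acta1, which had a smaller difference, are shown because at least 4 of the 5 male WT libraries exceeded all 15 others for each. Each is the RefSeq window on GRCm38.p6 from 250 bases before to 50 bases after the gene's start, read on the gene's strand. They lie at chr7:19410844-19411143 on the plus strand (Ckm), chr7:126463024-126463323 on the minus strand (Atp2a1), chr11:67237562-67237861 on the plus strand (Myh4) and chr8:123894726-123895025 on the minus strand (Acta1). Capitals mark matches to 4 motifs of muscle promoters: the E-box CANNTG, which binds MyoD-type factors, MCAT (CATTCC), and the CArG box and MEF2 site, bound by SRF and MEF2 factors.
Ckm: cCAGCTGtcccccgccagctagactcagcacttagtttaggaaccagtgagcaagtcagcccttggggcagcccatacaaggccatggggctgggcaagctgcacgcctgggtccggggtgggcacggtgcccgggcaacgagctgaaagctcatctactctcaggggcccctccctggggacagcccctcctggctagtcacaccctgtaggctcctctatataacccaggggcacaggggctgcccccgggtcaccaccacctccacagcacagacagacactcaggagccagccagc
Atp2a1: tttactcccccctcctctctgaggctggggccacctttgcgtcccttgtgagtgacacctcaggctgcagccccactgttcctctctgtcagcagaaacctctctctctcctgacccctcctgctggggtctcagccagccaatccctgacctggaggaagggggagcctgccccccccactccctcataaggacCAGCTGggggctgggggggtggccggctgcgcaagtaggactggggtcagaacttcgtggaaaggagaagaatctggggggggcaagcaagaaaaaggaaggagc
Myh4: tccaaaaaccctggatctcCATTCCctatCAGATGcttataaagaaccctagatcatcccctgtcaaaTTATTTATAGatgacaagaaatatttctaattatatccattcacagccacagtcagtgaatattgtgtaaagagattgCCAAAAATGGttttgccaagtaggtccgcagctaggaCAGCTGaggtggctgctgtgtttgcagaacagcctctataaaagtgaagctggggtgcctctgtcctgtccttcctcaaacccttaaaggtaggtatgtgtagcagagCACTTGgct
Acta1: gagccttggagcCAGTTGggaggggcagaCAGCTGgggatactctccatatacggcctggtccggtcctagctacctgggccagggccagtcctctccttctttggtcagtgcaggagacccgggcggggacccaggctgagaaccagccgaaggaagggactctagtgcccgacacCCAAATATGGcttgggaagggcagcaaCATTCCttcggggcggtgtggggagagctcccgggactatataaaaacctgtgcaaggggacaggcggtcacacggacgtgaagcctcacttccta

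RefSeq's table held promoters for 8 of the 9 genes. Both strands were searched. The E-box form CAGCTG, which reads the same on both strands and is one case of CANNTG, was in 7 of these 8 windows, against 16.3% of all 32851 promoters in the table. Ryr1 held no CANNTG, a motif found in 72.3% of all promoters. CAGCTG was singled out after the windows had been searched. In Ckm it began at base -249 from the start, in Atp2a1 at -55, in Myh4 at -67 and in Acta1 at -221. A CArG box was in the Acta1 window (CCAAATATGG, first base -73) and in the Myh4 window (CCAAAAATGG, first base -104), against 1.63% of all promoters. A MEF2 site was in the Myh4 and Pgam2 windows, against 3.19% of all promoters. MCAT was in the windows of Acta1, Myh4 and Pgam2, against 14.7% of all promoters. Genes with a smaller or no male difference (Tpm2 and Pgam2) also held CAGCTG. These matches describe the letters in the windows and not a bound site. The deposited ranges of Ckm and Mylpf begin upstream of their windows, and the windows of Myh4 and Pgam2 lie wholly upstream of the deposited ranges. Base positions are thus counted from the RefSeq start, and which start the hippocampus used was not tested.

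**Figure D1:**
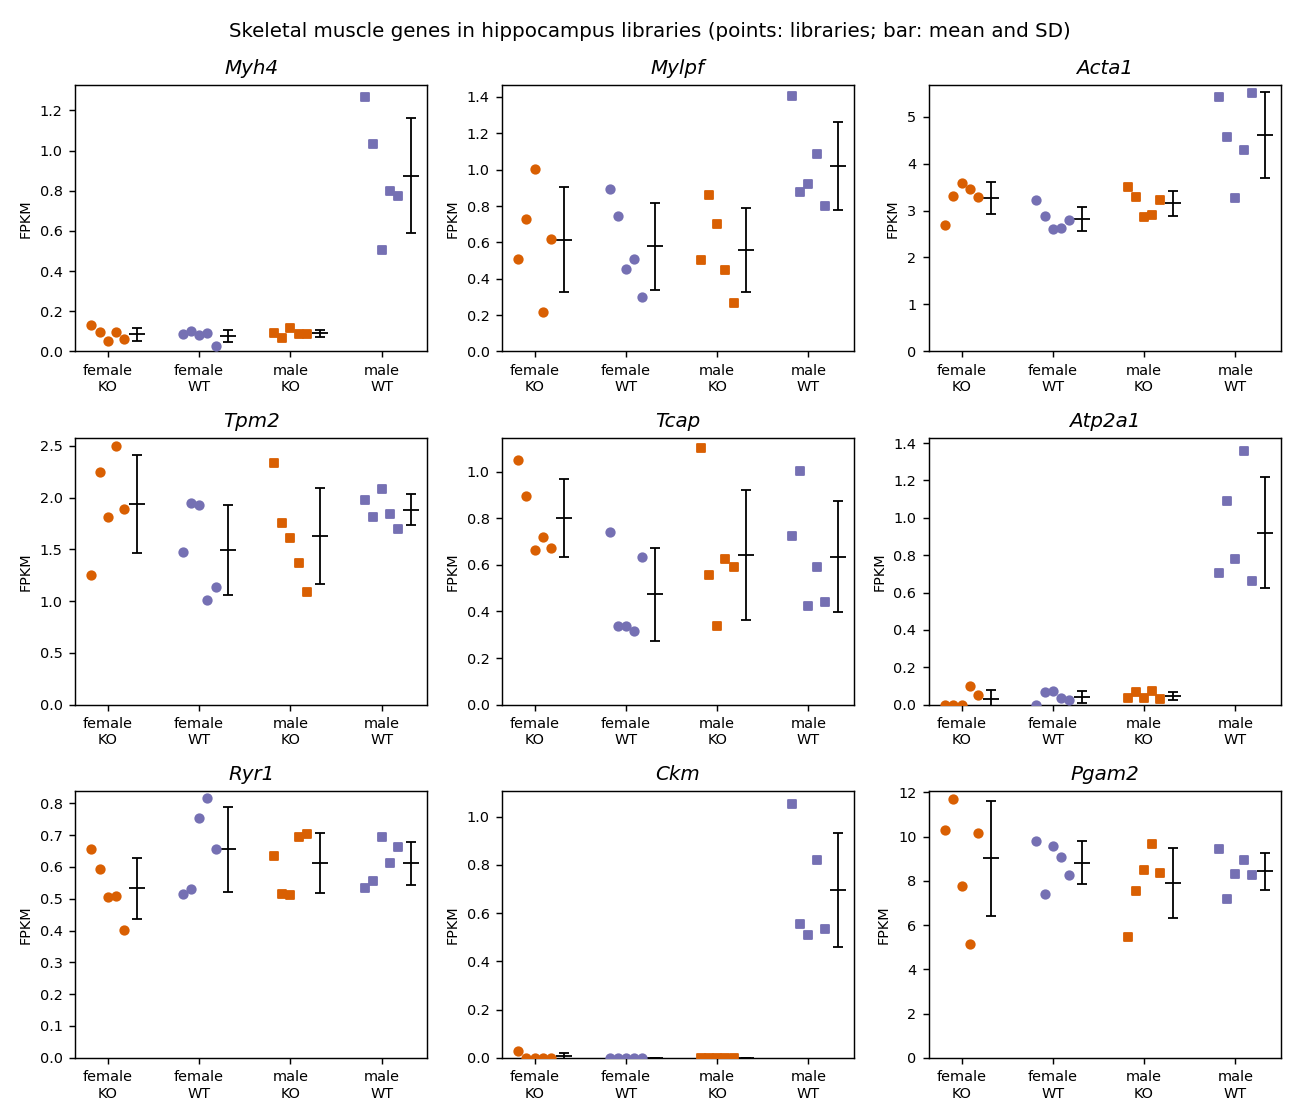
FPKM (vertical axes, linear, from 0) of the 9 muscle genes in each of the 20 libraries, by group; points are libraries and the bar beside them is the mean with its SD. For Ckm, Atp2a1 and Myh4 all 5 male WT libraries lie above every other library, while Tcap, Ryr1 and Pgam2 have no such gap.

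Myh4 (ENSMUSG00000057003.12, mm10 chromosome 11, 67238029 to 67260446, plus strand) encodes the myosin heavy chain of the fastest fibres. Its FPKM were 0.130, 0.0950, 0.0497, 0.0984 and 0.0599 in the 5 female KO libraries, and 0.0863, 0.103, 0.0840, 0.0929 and 0.0260 in female WT. They were 0.0940, 0.0657, 0.116, 0.0855 and 0.0892 in male KO, and 1.26, 1.03, 0.505, 0.798 and 0.773 in male WT. The other 15 libraries shared 1 narrow low range, up to 0.130, and the lowest male WT library was at 0.505. Male KO libraries averaged 0.0901 ± 0.0180 FPKM and male WT libraries 0.875 ± 0.287 (SD, n = 5 each), so that the male KO level was 10.3% of the male WT level. The difference of mean log2(FPKM + 1), KO minus WT, was -0.77 in males, and adding 1 FPKM understates the change of so low a gene.

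Mylpf (ENSMUSG00000030672.12, chromosome 7, 127208890 to 127214298, plus strand), the regulatory light chain of fast myosin, was present in all groups. It was at 0.507, 0.730, 1.004, 0.216 and 0.618 FPKM in female KO, and 0.896, 0.745, 0.453, 0.508 and 0.297 in female WT. In male KO libraries it was at 0.502, 0.862, 0.703, 0.448 and 0.269 FPKM, and in male WT at 1.41, 0.878, 0.922, 1.09 and 0.800. Male WT libraries were again the highest on average, but the groups overlapped: 2 of 5 male WT libraries exceeded all 15 others. The male means were 0.557 ± 0.231 in KO and 1.02 ± 0.241 FPKM in WT (SD, n = 5 each), a difference of -0.38 on the log2 scale.

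Acta1 (ENSMUSG00000031972.5, chromosome 8, 123891769 to 123894751, minus strand) encodes skeletal alpha-actin, the main actin of the thin filament in skeletal muscle. It was at 2.69, 3.31, 3.59, 3.45 and 3.29 FPKM in female KO, and 3.22, 2.87, 2.61, 2.62 and 2.79 in female WT. Male KO libraries had 3.51, 3.28, 2.85, 2.91 and 3.22 FPKM, and male WT libraries 5.41, 4.58, 3.27, 4.30 and 5.50. Here 4 of 5 male WT libraries exceeded all 15 others, and the remaining one, replicate 3 at 3.27, lay among the male KO values. The means in males were 3.15 ± 0.272 in KO and 4.61 ± 0.914 FPKM in WT (SD, n = 5 each), with a log2 difference of -0.42.

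Tpm2 (ENSMUSG00000028464.16, chromosome 4, 43514711 to 43523765, minus strand), the beta-tropomyosin that blocks or frees actin, ranged more within groups than between them. Its levels were 1.25, 2.25, 1.81, 2.50 and 1.89 FPKM in female KO, and 1.47, 1.95, 1.93, 1.01 and 1.13 in female WT. In males they were 2.33, 1.76, 1.61, 1.37 and 1.09 FPKM in KO, and 1.98, 1.82, 2.08, 1.84 and 1.70 in WT. All 4 groups overlapped, and the male difference was -0.15 on the log2 scale. Tcap (ENSMUSG00000007877.2, chromosome 11, 98383811 to 98384953, plus strand) encodes telethonin, which caps titin at the Z-disc. It was at 1.05, 0.894, 0.666, 0.720 and 0.672 FPKM in female KO, and 0.743, 0.336, 0.339, 0.317 and 0.633 in female WT. In male KO it was at 1.10, 0.556, 0.337, 0.627 and 0.590 FPKM, and in male WT at 0.724, 1.002, 0.424, 0.590 and 0.439. The male groups shared 1 range, with means of 0.642 ± 0.281 in KO and 0.636 ± 0.238 FPKM in WT (SD, n = 5 each). Female KO libraries were on average above female WT, with overlap.

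Atp2a1 (ENSMUSG00000030730.12, chromosome 7, 126445858 to 126463108, minus strand) encodes SERCA1, the calcium pump that refills the store of fast fibres. It was at 0, 0, 0, 0.102 and 0.0517 FPKM in female KO, and 0, 0.0692, 0.0725, 0.0345 and 0.0227 in female WT. Male KO libraries had 0.0354, 0.0670, 0.0357, 0.0738 and 0.0285 FPKM, and male WT libraries 0.707, 1.09, 0.781, 1.36 and 0.664. No library outside male WT passed 0.102, and none within it was below 0.664. In males the means were 0.0481 ± 0.0207 FPKM in KO and 0.921 ± 0.297 in WT (SD, n = 5 each), so KO libraries held 5.22% of the WT level, with a log2(FPKM + 1) difference of -0.86. Of its 3477 exon bases in GENCODE M21, 763 also lie in exons of Rabep2 on the opposite strand, and the strand setting of the authors' quantification is not known here. Rabep2, an endosome gene, averaged 1.11 FPKM in male KO and 1.34 in male WT libraries, with overlap. In females Rabep2 averaged 1.40 FPKM in KO and 1.18 in WT libraries. Whether reads of Rabep2 had a part in the Atp2a1 levels was not tested.

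Ryr1 (ENSMUSG00000030592.18, chromosome 7, 29003344 to 29125179, minus strand), the calcium release channel of skeletal muscle, works one step before the pump. Its levels were 0.656, 0.592, 0.504, 0.508 and 0.403 FPKM in female KO, and 0.516, 0.532, 0.754, 0.817 and 0.657 in female WT. Male KO libraries were at 0.634, 0.515, 0.513, 0.695 and 0.704 FPKM, and male WT libraries at 0.532, 0.555, 0.693, 0.613 and 0.662. The male ranges coincided, at 0.513 to 0.704 FPKM in KO and 0.532 to 0.693 in WT, and the difference was 0.00. In these libraries the release channel and the pump thus did not share a pattern: Pearson's r between Ryr1 and Atp2a1 over the 20 libraries was 0.04 on log2 values.

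Ckm (ENSMUSG00000030399.2, chromosome 7, 19404776 to 19422841, plus strand) encodes muscle creatine kinase, which regenerates ATP from creatine phosphate at the contracting filaments. All 5 male KO and all 5 female WT libraries were listed at 0, as were 4 of 5 female KO libraries, and female KO replicate 1 was at 0.0290. It was at 1.05, 0.556, 0.510, 0.819 and 0.535 FPKM in the 5 male WT libraries. A listed 0 can be a failed estimate, so no fold is given. An antisense RNA, A930016O22Rik, overlaps 451 of its 2913 exon bases and was not analysed here. Pgam2 (ENSMUSG00000020475.3, chromosome 11, 5801640 to 5803733, minus strand), the muscle phosphoglycerate mutase of glycolysis, had the highest FPKM of the 9. It was at 10.3, 11.7, 7.75, 5.15 and 10.2 FPKM in female KO, and 9.80, 7.40, 9.57, 9.06 and 8.28 in female WT. Male KO libraries were at 5.45, 7.56, 8.48, 9.68 and 8.36 FPKM, and male WT libraries at 9.44, 7.19, 8.31, 8.93 and 8.28. Groups overlapped throughout, and the male difference was -0.10. Of the 2 energy enzymes, Ckm, at 0 in all male KO libraries, had no overlap between the male groups, and the abundant Pgam2 did.

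The order of mean level in male KO ran from Pgam2 (7.91 ± 1.57 FPKM) through Acta1 (3.15), Tpm2 (1.63 ± 0.466), Tcap (0.642), Ryr1 (0.612 ± 0.0936) and Mylpf (0.557) to Myh4 (0.0901), Atp2a1 (0.0481) and Ckm, listed at 0 (SD, n = 5). In male WT, where all 9 were detected, it was Pgam2 (8.43 ± 0.843), Acta1 (4.61), Tpm2 (1.88 ± 0.148), Mylpf (1.02), Atp2a1 (0.921), Myh4 (0.875), Ckm (0.694 ± 0.236), Tcap (0.636) and Ryr1 (0.611 ± 0.0683, SD, n = 5). From Mylpf downward in male WT, each gene's range overlapped that of its neighbour. Thus Myh4, Atp2a1 and Ckm were last in male KO and stood above Tcap and Ryr1 in male WT.

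In FPKM rather than log2, the male difference of means (KO minus WT) was -1.46 for Acta1, -0.873 for Atp2a1, -0.785 for Myh4, -0.694 for Ckm, -0.524 for Pgam2, -0.462 for Mylpf and -0.252 for Tpm2. For Tcap it was 0.00687 and for Ryr1 0.00101. Of the 9, Acta1 thus had the largest male difference in FPKM and Atp2a1 the largest on the log2(FPKM + 1) scale. Between the male groups 3 of the 9 genes did not overlap (Ckm, Atp2a1 and Myh4), and 187 of 13256 genes (1.41%) likewise had all male KO libraries below all male WT libraries. Since this contrast chose the genes, nothing is read from that count. In bulk RNA, fewer cells of a type and less RNA per cell cannot be told apart.

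Within male WT the 5 libraries did not keep 1 order. The summed FPKM of Ckm, Atp2a1 and Myh4 was 0.118 to 0.159 in male KO, and 3.02, 2.68, 1.80, 2.98 and 1.97 in male WT replicates 1 to 5. It was 0.0497 to 0.200 in female KO and 0.0488 to 0.172 in female WT libraries. Ckm, Myh4 and Mylpf were highest in replicate 1, Atp2a1 in replicate 4 and Acta1 in replicate 5. The ratio of Atp2a1 to Ckm FPKM ran from 0.672 in replicate 1 to 1.97 in replicate 2, and that of Myh4 to Ckm from 0.975 in replicate 4 to 1.86 in replicate 2. Each of the 5 libraries had all 3 genes above every library outside male WT.

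Over the 20 libraries some of the 9 genes correlated with each other and others did not. Pearson's r of log2(FPKM + 1) was 0.97 between Ckm and Myh4, 0.94 between Ckm and Atp2a1, 0.85 between Myh4 and Acta1 and 0.67 between Ckm and Mylpf. With Ckm, it was 0.23 for Tpm2, 0.05 for Pgam2, 0.04 for Tcap and 0.01 for Ryr1. These values are descriptions over 20 libraries that share their scaling, and for the genes with high values the male WT libraries lay apart from the rest. Ckm, Atp2a1 and Myh4 were chosen on the male contrast, so high values among them follow from that choice. They do not describe variation among the libraries of a group.

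The female comparison asked whether KO and WT libraries differed where the genes had not been chosen. None of the 9 passed the threshold, an adjusted p under 0.05 from limma over all 13174 tested genes, of which 438 (3.32%) passed. At an unadjusted p under 0.05, 1 of the 9 passed, against 19.5% of all tested genes. Ckm, Atp2a1 and Myh4 were kept for testing only because of their male WT levels. At 0 to 0.130 FPKM in the female libraries, with 1 FPKM added, their differences could only be small, so the count bears on the other 6 genes. On the log2(FPKM + 1) scale the largest female difference was that of Tcap, with 0.800 ± 0.167 FPKM in female KO and 0.474 ± 0.200 in female WT (SD, n = 5 each). Its log2 difference was 0.29 (SE 0.12) with a limma adjusted p of 0.169 (unadjusted 0.0206). Of the 5 female KO libraries, 3 lay within the female WT range.

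For Tpm2 the female difference was 0.24 (SE 0.13, limma adjusted p = 0.327), and for Acta1 0.16 (SE 0.093, limma adjusted p = 0.365). Ryr1 had 0.533 ± 0.0962 FPKM in female KO and 0.655 ± 0.133 in female WT (SD, n = 5 each), a difference of -0.11 (limma adjusted p = 0.322). Mylpf (0.03, limma adjusted p = 0.937) and Pgam2 (-0.01, limma adjusted p = 0.979) had differences near 0, with 95% intervals of -0.25 to 0.30 and -0.34 to 0.32. A p that misses the threshold does not show equal levels, and at these low FPKM the added 1 compresses differences.

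**Figure D2:**
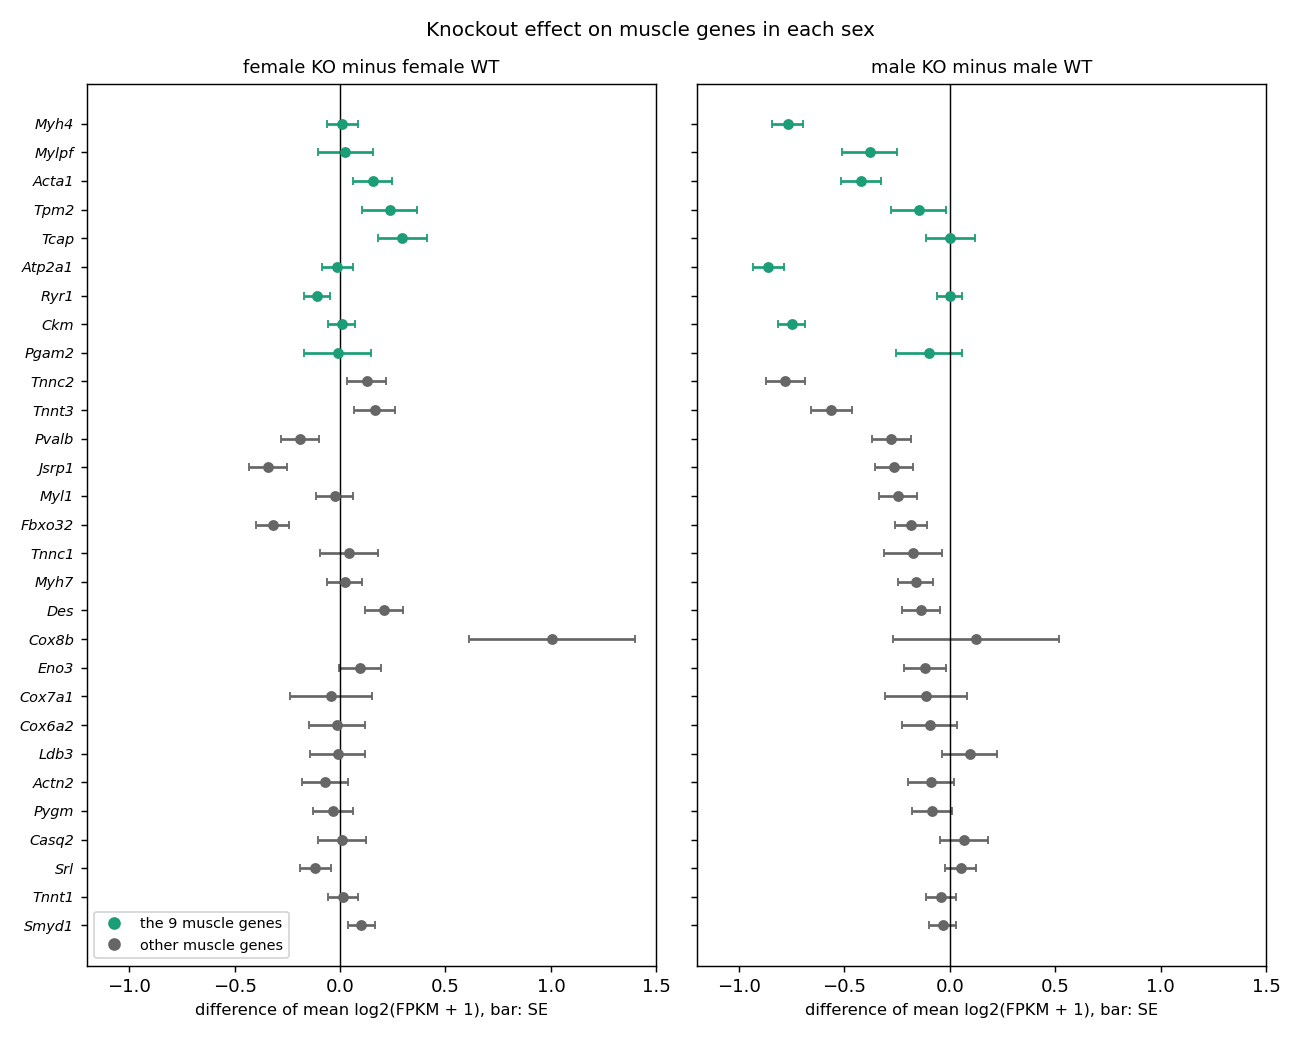
Difference of mean log2(FPKM + 1), KO minus WT, with its SE, in females (left) and males (right), for the 9 genes (green) and 20 further muscle genes (grey). In females the green points lie between -0.11 and 0.29; in males Ckm, Atp2a1 and Myh4 lie between -0.75 and -0.86, and Tnnc2 and Tnnt3 are the grey points farthest to the left.

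The KO effects of the 2 sexes were not tested against each other for these genes, because that test would use the male WT libraries again. Side by side, Acta1 had a difference of 0.16 in females and -0.42 in males, and Mylpf 0.03 in females and -0.38 in males. The male difference of Ckm, -0.75 on the log2(FPKM + 1) scale, rests on listed zeros and on the added 1 FPKM, and is no fold. Between the WT groups, male libraries averaged 4.61 FPKM of Acta1 and female libraries 2.82 ± 0.251. Between the KO groups, Myh4 averaged 0.0901 FPKM in males and 0.0865 in females, and Acta1 averaged 3.15 in males and 3.26 in females.

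A wider list of 81 other skeletal muscle genes, drawn up with the pattern known, had 25 members in the tables and 23 above the filter on low values. Of these 23, none passed in males with limma, and 4 of the 23 had an unadjusted p under 0.05, against 8.69% of all tested genes. Over all tested genes, 6 of 13174 (0.0455%) passed in males, all lower in KO. These 6 are Fmr1, Serpina3n and Syt16 together with Ckm, Atp2a1 and Myh4, which were chosen on this contrast and passed the filter only through male WT, so nothing is read from that share. In females 2 of the 23 passed, both lower in KO, a call that 1.53% of all tested genes had. The median log2 difference of the 23 was -0.08 in males, against -0.00149 over all tested genes, and 19 of the 23 were below 0. In females the median was -0.02, against 0.0052 over all tested genes, and 14 of 23 were below 0. The share of all tested genes below 0 is not given here. Since the list was drawn up with the male pattern known, its male median and count are a description.

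The troponins of fast and of slow fibres are separate genes. Tnnc2, the calcium-binding troponin of fast fibres, was at 0.106, 0.122, 0, 0.123 and 0.113 FPKM in female KO and at 0 in all 5 female WT libraries. It was at 0.102, 0.0872, 0.0943, 0 and 0 FPKM in male KO, and 1.28, 0.827, 0.630, 1.06 and 0.390 in male WT, where all 5 libraries exceeded the other 15. Tnnt3, which ties troponin to tropomyosin in fast fibres, was at 0.218, 0.264, 0.360, 0 and 0.0573 FPKM in female KO, and 0.0470, 0.0808, 0, 0.110 and 0 in female WT. In males it was at 0.213, 0.0979, 0.0967, 0 and 0.114 in KO, and 0.286, 0.869, 0.504, 0.904 and 0.648 in WT, and 4 of 5 male WT libraries exceeded the other 15. Tnnc2 and Tnnt3 fell below the filter of 0.5 FPKM in 5 libraries. Their male log2 differences without a filter were -0.78 for Tnnc2 and -0.56 for Tnnt3. In that fit 8 of 13256 genes (0.0604%) passed in males, and Tnnc2, Tnnt3, Ckm, Atp2a1 and Myh4 are 5 of the 8. Ckm, Atp2a1 and Myh4 were chosen on this contrast, and the wider list was drawn up with the male pattern known. These male values are therefore a description, and nothing is read from the 5 of 8. Their female differences without a filter were 0.13 for Tnnc2 and 0.16 for Tnnt3, neither past the threshold. Of the 800 exon bases of Tnnc2, 592 also lie in exons of Ube2c on the opposite strand, which was not analysed here.

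The slow-fibre counterparts had no gap between male WT and the rest. Tnnc1, the slow and cardiac troponin C, averaged 0.857 ± 0.266 FPKM in male KO and 1.08 ± 0.213 in male WT (SD, n = 5 each), with a difference of -0.17 (limma adjusted p = 0.780). Tnnt1, the slow troponin T, averaged 0.530 ± 0.133 in male KO and 0.573 ± 0.115 in male WT (SD, n = 5 each; limma adjusted p = 0.925). For Myh7, the slow myosin heavy chain, the means were 0.758 ± 0.0693 in male KO and 0.970 ± 0.140 in male WT (SD, n = 5 each; limma adjusted p = 0.606). Myl1, an essential light chain of fast myosin, averaged 0.343 ± 0.142 in male KO and 0.594 ± 0.194 in male WT (SD, n = 5 each), a difference of -0.25 (limma adjusted p = 0.405), and 3 of its 5 male WT libraries exceeded the other 15.

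**Figure D3:**
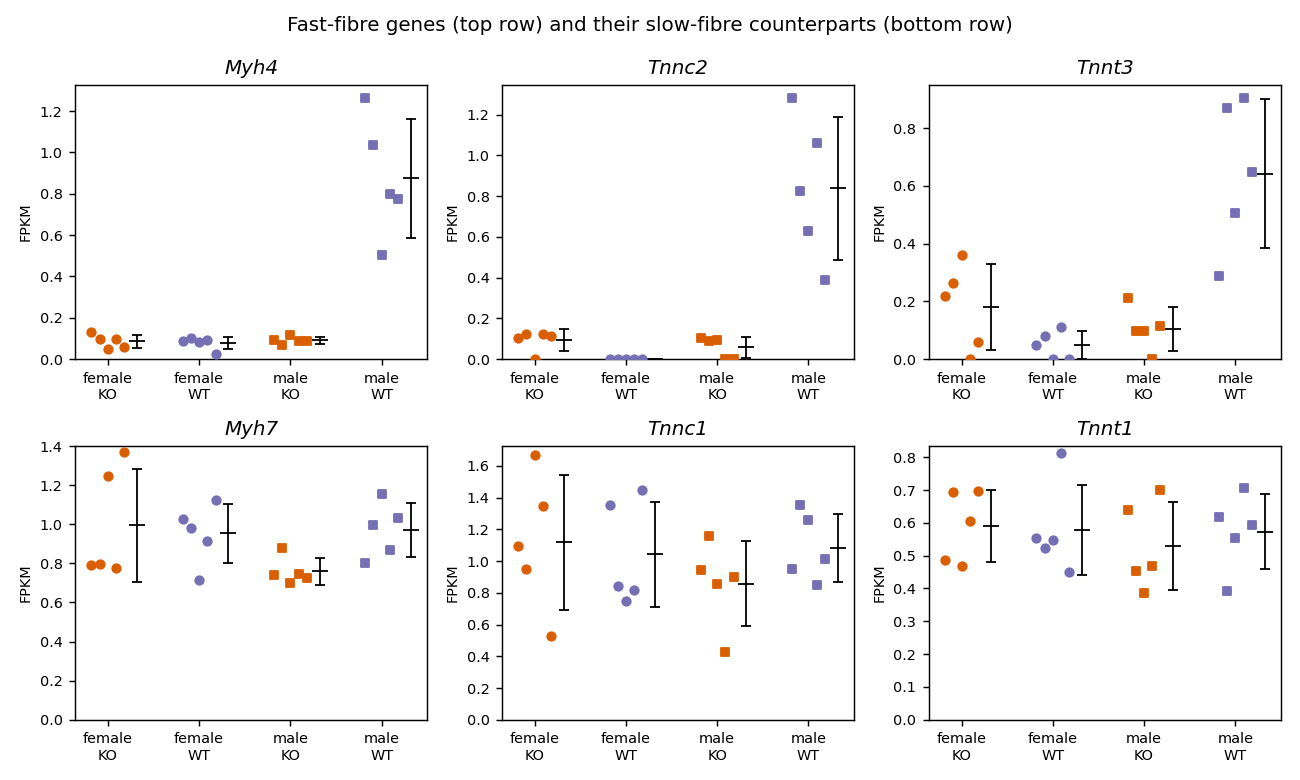
FPKM (vertical axes, linear, from 0) per library of the fast-fibre genes Myh4, Tnnc2 and Tnnt3 (top) and of the slow-fibre genes Myh7, Tnnc1 and Tnnt1 (bottom), by group, with mean and SD beside the points. The 3 fast-fibre genes shown are highest in male WT, where Tnnt3 alone has 1 library among the others, and the slow-fibre genes overlap in all groups. Myh4 was chosen on the male contrast, and Tnnc2 and Tnnt3 come from a list drawn up with the pattern known. Mylpf and Myl1, also of fast fibres but not shown, overlap between male KO and male WT.

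None of the remaining muscle genes passed in males with limma. Eno3, the muscle enolase, averaged 2.05 ± 0.113 FPKM in male KO and 2.32 ± 0.270 in male WT (SD, n = 5 each; limma adjusted p = 0.805). Pygm, the muscle glycogen phosphorylase, averaged 6.30 FPKM in male KO and 6.75 in male WT (limma adjusted p = 0.874), and Pvalb, a calcium buffer of fast fibres and of hippocampal interneurons, 28.8 in male KO and 35.2 in male WT (limma adjusted p = 0.372). Des, the intermediate filament desmin, averaged 0.311 FPKM in male KO and 0.438 in male WT (limma adjusted p = 0.728). In females, Fbxo32, a ubiquitin ligase of muscle wasting, was at 2.99 FPKM in KO and 3.99 in WT libraries, and passed with -0.32 (SE 0.077, limma adjusted p = 0.0307). Jsrp1, a protein of the calcium release junction, was at 1.12 FPKM in female KO and 1.70 in female WT, and passed with -0.34 (SE 0.090, limma adjusted p = 0.0422). Both calls were lost in a fit of the female libraries alone, without the 3 female KO libraries with over 4 FPKM of the pituitary hormone gene Prl, and without the 4 libraries with over 500 FPKM of the choroid plexus gene Ttr. They were also lost when female KO replicate 1, 2, 3 or 5, or female WT replicate 3 or 4, was left out.

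Each of 8 muscle genes was set beside a relative that brain cells use, chosen by family. Ckb averaged 139 ± 7.57 FPKM in male KO and 147 ± 11.5 in male WT (SD, n = 5 each; limma adjusted p = 0.729). Ckm in male WT amounted to 0.472% of Ckb. Atp2a2 averaged 129 ± 3.82 FPKM in male KO and 129 ± 3.97 in male WT (SD, n = 5 each; limma adjusted p = 0.997), and Atp2a1 was 0.0374% of it in male KO and 0.716% in male WT. The nonmuscle myosin Myh10 averaged 24.2 ± 0.846 FPKM in male KO and 25.1 ± 1.68 in male WT (SD, n = 5 each; limma adjusted p = 0.819), and Myh4 was 0.372% of it in male KO and 3.49% in male WT. Acta1 was 1.07% of Actb in male KO and 1.65% in male WT. Ryr1 and Pgam2 stood closer to their relatives, at 6.93% of Ryr2 and 5.18% of Pgam1 in male KO, against 7.31% and 5.51% in male WT. Tpm1, the relative of Tpm2, was at 22.1 to 23.2 FPKM in male KO and 24.1 to 24.7 in male WT, without overlap, a log2 difference of -0.10 (limma adjusted p = 0.157). Such a gap, with male KO lower, was found for 187 of 13256 genes (1.41%). Of all 17 relatives looked up, none passed the threshold in either sex with limma. An unadjusted p under 0.05 was found for 3 of the 17 in females and 1 in males, against 19.5% and 8.69% of all tested genes.

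**Figure D4:**
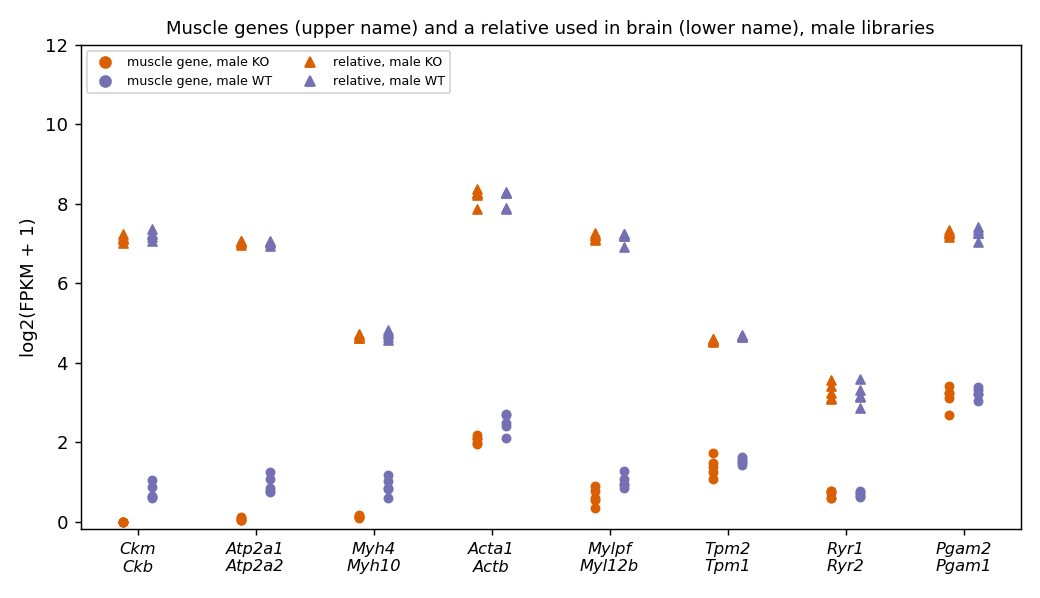
log2(FPKM + 1) of 8 muscle genes (circles) and of 1 relative each used in brain (triangles), per library, in male KO (orange) and male WT (violet). Each relative lies above its muscle gene; Tpm1 among them, and Ckm, Atp2a1 and Myh4 among the muscle genes, do not overlap between the groups.

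Reads shared between family members could blur these levels, since how the authors' tools split them is not known. Along the longest open reading frame of GENCODE M21 transcripts, Ckm and Ckb matched at 75.8% of aligned bases, with a longest identical run of 20 bases. For Atp2a1 and Atp2a2 these were 74.9% and 44 bases. Acta1 and Actb matched at 85.3% with a run of 77 bases, and Myh4 and Myh10 at 56.2% with 19 bases. Myh4 is much closer to the fast myosins Myh1 (90.2%, run of 161 bases) and Myh2 (88.2%, run of 146 bases), which were not analysed here, so its level may include reads of these genes.

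**Figure D5:**
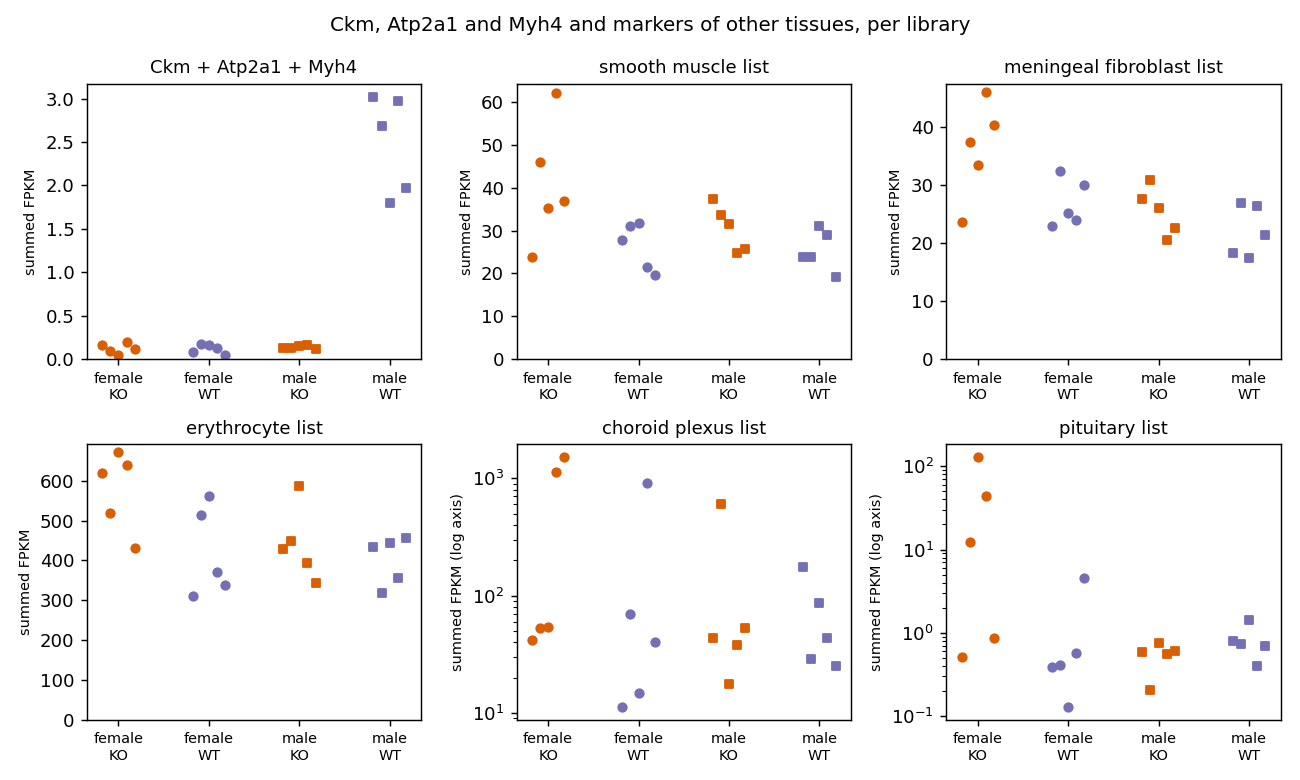
Summed FPKM per library (linear axes from 0, log axes for choroid plexus and pituitary) of Ckm, Atp2a1 and Myh4 and of 5 marker lists of other tissues, by group. The 3 muscle genes are at most 0.200 in the KO and female groups and at 1.80 to 3.02 in male WT, while no other list separates male KO from male WT.

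Markers of other tissues were summed per library beside the male pattern. The smooth muscle list (7 of 10 genes in the tables, among them Acta2 and Myh11) summed to 24.7 to 37.5 FPKM in male KO and 19.1 to 31.0 in male WT. Meningeal fibroblast markers (8 of 8) summed to 20.4 to 30.8 in male KO and 17.3 to 26.9 in male WT, and erythrocyte markers (5 of 5) to 343 to 586 in male KO and 318 to 456 in male WT. Bone and cartilage markers (2 of 6) summed to 0.771 to 1.15 in male KO and 1.12 to 1.29 in male WT. All these summed ranges overlapped between the male groups, as did those of the choroid plexus, pituitary, Schwann cell, adipocyte and skin lists. Within the meningeal list, the collagen gene Col1a1 did not overlap, at 0.932 to 1.21 FPKM in male KO and 0.518 to 0.689 in male WT (log2 difference 0.35, limma adjusted p = 0.157). The share of all genes with such a gap, male KO higher, is not given here, so nothing is read from it. None of the 9 heart markers and only 1 of 15 listed muscle regulators and membrane genes (Fbxo32) were among the genes analysed here. Whether RNA of adjoining tissue had a part in the male WT levels was not tested.

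Summed marker levels in females stand beside the differences of Tcap, Tpm2 and Acta1. Smooth muscle markers summed to 23.8 to 62.1 FPKM in female KO and 19.7 to 31.8 in female WT. Within that list Smtn passed, at a mean of 1.58 FPKM in female KO and 1.10 in female WT (log2 difference 0.29, limma adjusted p = 0.0434). Meningeal fibroblast markers summed to 23.5 to 46.0 in female KO and 23.0 to 32.3 in female WT. Of these Col1a1 passed, at a mean of 1.99 FPKM in female KO and 1.05 in female WT (log2 difference 0.54, limma adjusted p = 0.00512). Smtn and Col1a1 were each the only call among 7 tested genes of their list, while 438 of 13174 tested genes (3.32%) passed in females. Whether the calls of Smtn and Col1a1 held under the alternatives is not given here. Erythrocyte markers summed to 432 to 673 in female KO and 310 to 562 in female WT. Pituitary markers (3 of 6) summed to 0.508 to 129 in female KO and 0.128 to 4.52 in female WT, and choroid plexus markers (7 of 7) to 41.8 to 1521 in female KO and 11.2 to 906 in female WT. Ranges of all 5 lists overlapped. Without the 3 female KO libraries high in Prl the differences of Tcap, Tpm2 and Acta1 were 0.34, 0.05 and 0.06, and without the 4 libraries high in Ttr they were 0.31, 0.08 and 0.11, none past the threshold with limma. The part of other cell types in these values was not tested.

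All 13247 other genes in the tables were ranked, with no filter, by Pearson's r over the 20 libraries with the mean z-scored log2(FPKM + 1) of the 9. The 10 highest were Tnnc2 (0.93), Aktip (0.86), Tnnt3 (0.82), Tfdp1 (0.74), Habp4 (0.73), Slc25a46 (0.73), Ola1 (0.72), Vsnl1 (0.71), 4930430F08Rik (0.71) and Syt11 (0.70). Tnnc2 and Tnnt3, which lie below the filter of the tests, are on the wider muscle list, and the other 8 are not. The mean follows Ckm, Myh4 and Atp2a1 most closely, which were chosen on the male contrast. Genes high in male WT therefore rank high by construction, and the ranks are a description only. The 9 genes themselves ranged from 0.94 for Ckm to -0.03 for Ryr1 with this mean, of which each is a part. With each gene left out of the mean it was set against, the range was 0.91 for Ckm to -0.22 for Ryr1. Against the mean of Ckm, Atp2a1 and Myh4 alone, Tnnc2 had an r of 0.97, Tnnt3 of 0.82, Acta1 of 0.81 and Mylpf of 0.64, while Tcap had 0.05 and Pgam2 0.00.

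All 5 male WT libraries exceeded all 15 others for 22 of 13256 genes (0.166%). Ckm, Atp2a1, Myh4 and Tnnc2 were among the 22. They were also the 4 of the 22 that are on a skeletal muscle list, and none of them exceeded 0.130 FPKM in any library outside male WT. Ckm, Atp2a1 and Myh4 were chosen on the male contrast, and the list holding Tnnc2 was drawn up with the pattern known. Their presence among the 22 is therefore a description, and nothing is read from it.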

How the data were processed

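RNA of 20 mouse hippocampus libraries was extracted with TRIzol and prepared with a SMARTER kit, per the labels' protocols. The deposited values are FPKM per gene, which the authors made for each library and which list 13256 protein-coding genes, per the file headers. Reads were handled with FastQC, HISAT2 and StringTie on mm10, per the submitters' processing notes, which give no versions; annotation, trimming and strandedness are not given in the sources used. At most 43.3% of low values fell on whole-read steps (tolerance 0.1 of a read), so reads were not recovered, depth is unknown and no counting interval was made.

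Genes at 0.5 FPKM or more in at least 5 libraries (13174) were fitted as log2(FPKM + 1) in R 4.3.3 by limma-trend (limma 3.58.1), with 1 mean for each of 4 groups over 20 libraries and Benjamini-Hochberg adjustment. All 9 genes passed this filter, Ckm, Atp2a1 and Myh4 only through the male WT libraries. The fit was also run on simulated data, with normal noise around a common mean per gene and some genes shifted in female KO. That simulation held no libraries high in Prl or Ttr and no genes raised in male WT alone, so it does not bear on these. Alternatives were upper-quartile rescaling, no filter or 2 FPKM, a pseudocount of 0.1, only the compared groups, a replicate block, and each library left out; removing the libraries high in Prl or Ttr was added after the data were seen. Coding sequences were aligned with MAFFT 7.526 and exon overlaps read from GENCODE M21; promoters are RefSeq's, and no promoter of Tcap or protein sequence was used here. Pairs of libraries correlated at 0.976 to 0.990 and no nonzero value was identical between 2 libraries.

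The 9 genes and all lists were chosen with earlier results of these data known. Named genes were the 9; muscle genes with a group mean of at least 0.3 FPKM or past the threshold, up to 20, largest male difference first (20 of 25, some given only in the plot of KO effects); a brain relative for each of 8; leading markers of other tissues; and the 10 most alike.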

Additional observations from a re-analysis of the deposited data

Results flagged for a closer look

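A library was singled out where it lay far from the other 4 of its group by Dixon's test, at a critical value of 0.71; 113 groups of 5 were examined, 10 values were singled out, and chance gives about 1 in 20 groups. Among the 9 genes, Ckm was at 0.0290 FPKM in female KO replicate 1, the only nonzero value outside male WT, and Myh4 was at 0.0260 FPKM in female WT replicate 5, the lowest of its group. Among fast-fibre genes, Tnnc2 was listed at 0 in female KO replicate 3, while the other 4 female KO libraries were at 0.106 to 0.123. Of the slow-fibre genes, Myh7 was highest in male KO replicate 2 at 0.879 FPKM and Tnnt1 in female WT replicate 4 at 0.814, a library also high in Ttr. Des was highest in female WT replicate 3 at 0.661 FPKM, and Jsrp1 in male WT replicate 5 at 1.57. The lowest values far from their groups were those of Eno3 in female KO replicate 3 (1.78 FPKM), Cox7a1, a muscle form of a respiratory subunit, in male WT replicate 3 (1.01) and Ldb3, a Z-disc protein, in male WT replicate 2 (0.523).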

How the results depend on the processing

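None of the 9 genes passed in females under any alternative. For Ckm, Atp2a1 and Myh4, near 0 FPKM in all female libraries, this says nothing about stability. Over all genes the 438 female calls became 91 in a fit of the compared groups, 107 with the replicate block, 8 without the 3 libraries high in Prl, 76 without the 4 high in Ttr and 176 to 455 with 1 library left out. The 6 male calls became 3 at 2 FPKM, 12 without the 4 high in Ttr and 6 to 11 with 1 library left out, 11 without male WT replicate 2 and 10 without male WT replicate 3. Among these 6 were Ckm, Atp2a1 and Myh4, which were chosen on this contrast and were not tested at 2 FPKM. The male counts are therefore a description. Of the wider muscle list, 2 passed in males without a filter and 0 otherwise. In females its 2 calls became 1 at 2 FPKM and at a pseudocount of 0.1, 0 in the fit of the compared groups, with the replicate block and without the libraries high in Prl or Ttr, and 0 to 3 with 1 library left out. The female count over all genes fell by more than 1.5 times without female KO replicate 2 (208), 3 (180) or 5 (258), or female WT replicate 3 (211), 4 (176) or 5 (217).

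With a pseudocount of 0.1 the male log2 differences were -2.75 for Atp2a1, -2.94 for Ckm, -2.31 for Myh4 and -0.82 for Mylpf. Those of Acta1 stayed between -0.52 and -0.36 over 18 alternatives, while Ryr1, Tcap and Pgam2 changed sign in some. At 2 FPKM, of the 9 genes only Acta1 and Pgam2 were tested. The cause of each shift was not tested beyond what the setting removes. The replicate numbers did not pair the samples: same-numbered libraries correlated at -0.0311 to 0.0589 in females and -0.0667 to 0.0651 in males, none best with its own number. With the replicate block, 5 genes passed in males. Upper-quartile rescaling shifted the median of all genes by -0.00996 in females and 0.00798 in males. Unknown depth limits all statements on genes under 1 FPKM.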

Other observations

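Cox8b, a respiratory subunit of heart, skeletal muscle and brown fat, was on the wider muscle list and had another pattern than Ckm, Atp2a1 and Myh4. It was at 0.920, 0.272, 1.94, 4.13 and 8.11 FPKM in female KO libraries, and at 0.974, 0, 0.235, 1.62 and 0.626 in female WT. Male KO libraries were at 0 to 1.16 FPKM and male WT libraries at 0.193 to 0.613. Its highest libraries, female KO replicates 4 and 5, were also those with the most Ttr, at 1097 and 1461 FPKM. The log2 difference in females of 1.004 (SE 0.39) did not pass (limma adjusted p = 0.165). Whether choroid plexus RNA had a part in it was not tested.

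Besides Ckm, Atp2a1, Myh4 and Tnnc2, 18 of the 22 genes with all male WT libraries above all others are on none of the muscle lists. Aktip, a trafficking gene chosen after its values were seen, is one, at a mean of 10.5 FPKM in male KO and 11.9 in male WT libraries.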
